A study of Mus musculus with 6 samples.

Results

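Pax5, Zcchc7 and Grhpr lie beside each other on mouse chromosome 4, and DNA methylation was described at every CpG position read in a window of 520 kb around them, with covered positions from chr4:44502462 to chr4:45019370 (GRCm38). The window was chosen with its methylation difference between Tet2 knock-out and wild-type cells already known. Its differences are therefore given as a description, with no p-value beside a single difference, and counts that passed a threshold stand beside the share in the genome. Of 964 positions listed for the window in any library, 698 had 10 or more reads in each of the 6 libraries. Genome-wide, 1463044 of 2029165 listed positions did. These 698 positions represent 576 CpGs, since a CpG read on both strands gives 2 positions. The material was germinal centre B cells from the spleens of C57BL/6 mice, 3 libraries labelled TET2 Wild-Type (WT) and 3 labelled TET2 Knock-Out (KO), with no treatment. The labels give neither the knock-out allele, a Cre driver, the age of the mice, the sorting gate nor whether a library came from 1 mouse. The assay was enhanced reduced representation bisulfite sequencing (ERRBS), in which DNA is cut at CCGG sites and unmethylated cytosines are converted so that they read as T. A methylation level here is the percentage of a position's reads that kept a C.

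Pax5 is the transcription factor that commits lymphoid progenitors to the B-cell lineage and keeps mature B cells in that state, and it is switched off when they become plasma cells. Its neighbour Zcchc7 encodes a zinc-knuckle protein of a nuclear complex that marks faulty RNAs for decay, and in humans a distal PAX5 enhancer, often mutated in B-cell tumours, lies in this neighbouring territory. Grhpr encodes glyoxylate and hydroxypyruvate reductase, a metabolic enzyme unrelated to B-cell identity. Tet2 oxidises 5-methylcytosine to 5-hydroxymethylcytosine, a step towards removal of the mark, and bisulfite sequencing reads both of these bases as methylated. CpG-rich gene starts are usually unmethylated, whereas most CpGs elsewhere in a gene are methylated.

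The 250 bases upstream of the 3 gene starts are shown because they display which CpGs the assay could read there. They are from RefSeq (GRCm38.p6), 5′ to 3′ on the strand of the gene, with each CG that was measured in all 6 libraries in capitals. The Pax5 sequence lies on the reverse strand at chr4:44710695-44710944, the Zcchc7 sequence on the forward strand at chr4:44756309-44756558 and the Grhpr sequence on the forward strand at chr4:44981144-44981393.
Pax5: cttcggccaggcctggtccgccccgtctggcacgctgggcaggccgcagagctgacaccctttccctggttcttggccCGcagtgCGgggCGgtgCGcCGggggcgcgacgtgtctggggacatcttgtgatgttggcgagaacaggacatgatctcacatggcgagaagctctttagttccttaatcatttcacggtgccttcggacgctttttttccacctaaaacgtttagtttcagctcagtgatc
Zcchc7: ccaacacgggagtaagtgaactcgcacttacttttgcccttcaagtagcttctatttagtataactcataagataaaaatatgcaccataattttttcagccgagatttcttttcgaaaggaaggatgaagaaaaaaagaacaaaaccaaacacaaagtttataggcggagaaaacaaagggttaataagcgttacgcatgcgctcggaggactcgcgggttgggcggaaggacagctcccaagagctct
Grhpr: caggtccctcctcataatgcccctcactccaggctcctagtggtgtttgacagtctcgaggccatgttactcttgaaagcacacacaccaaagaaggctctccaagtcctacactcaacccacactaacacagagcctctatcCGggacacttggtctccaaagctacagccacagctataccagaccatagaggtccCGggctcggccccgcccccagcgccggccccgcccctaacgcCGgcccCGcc
The Pax5 stretch held 19 CpGs, of which 5 were measured, and the Grhpr stretch held 11, of which 4 were measured. None of the 12 CpGs upstream of Zcchc7 was measured, and that stretch holds no CCGG. With the 50 bases downstream of its start added, the Zcchc7 window held 1 CCGG and 5 measured CpGs. Over all 32851 RefSeq promoter windows, from 250 bases upstream to 50 bases downstream, 52.8% hold a CCGG. CCGG reads the same on both strands.

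Reads over CpG positions summed to between 174375503 and 203863392 per library, and the mean coverage in the window was between 112 and 142 reads per position. A single position of the 698 had between 11 and 437 reads in a library. Levels at the ends of marker genes were low for B cells (median 2.06% over the 4 of 7 genes with an end covered) and germinal centre B cells (median 0.122%, 5 of 6 genes). They were higher for T cells (median 44.1%, range 0.557% to 94.2%, 4 of 8 genes) and myeloid cells (median 85.3%, range 0.244% to 94.2%, 3 of 6 genes). Within Tet2 itself, 6 positions between chr3:133486189 and chr3:133486297 had 32 to 168 reads in every WT library and were listed in no KO library. At 108 positions of the gene all 6 libraries had at least 10 reads. Positions of the gene listed in only some libraries of a group are not counted here.

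The mean level over the 698 positions was 24.05%, 27.5% and 28.4% in WT replicates 1 to 3, and 29.5%, 30.3% and 30.5% in KO replicates 1 to 3. Every KO library was above every WT library. The group means were 26.6% ± 2.29 (SD, n = 3) in WT and 30.1% ± 0.545 (SD, n = 3) in KO, a difference of 3.45 percentage points, and without WT replicate 1 the difference was 2.15 points. Over all covered positions of the genome the corresponding means were 33.0% ± 0.413 and 33.8% ± 0.150 (SD, n = 3 each). Most positions of the window were at an extreme. Mean levels under 5% were found at 392 positions and over 80% at 126. Between 20% and 80% lay 156 positions, or 22.3% of the window against 10.1% of all covered positions of the genome. Of these 156, 89 lay in a single 1 kb tile inside Pax5, and outside that tile the share was 11.1%. Without that tile the mean level of the window was 24.4% in WT and 27.0% in KO, a difference of 2.52 points.

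**Figure D1:**
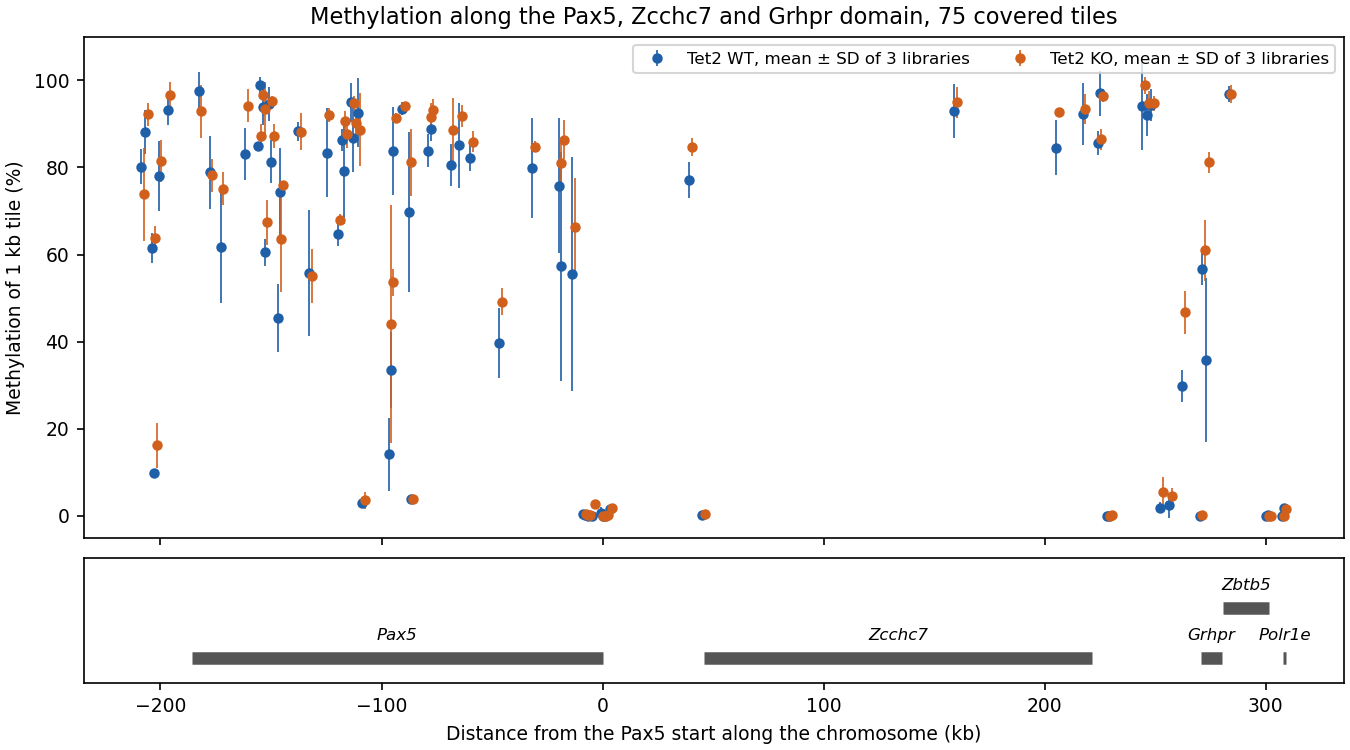
Methylation level (%) of the 75 covered 1 kb tiles against distance from the Pax5 start along the chromosome (kb), as mean ± SD of 3 WT libraries (blue) and 3 KO libraries (orange), with gene bodies drawn below. Tiles at the starts of Pax5, Zcchc7, Grhpr, Zbtb5 and Polr1e sit near 0%, most other tiles above 60%, and long stretches of Zcchc7 have no covered tile.

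Reads were summed over fixed 1 kb tiles. Of the 520 tiles in the window, 75 held a covered position and 54 held at least 3. Among these, 34 had a mean level between 5% and 95% and entered a quasi-binomial test run over 83114 such tiles of the genome. Another 19 had a mean under 5% and 1 a mean over 95%. The KO mean was above the WT mean in 29 of the 34 and below it in 5, with a median difference of 4.31 points and a range of -6.41 to 45.4 points. Over the whole genome the KO mean was above in 64.0% of tested tiles, and the median difference was 1.28 points. Every KO library exceeded every WT library in 10 of the 34 tiles, against 12.7% of tested tiles of the genome, and no tile had all KO libraries below all WT libraries. In the remaining 24 the groups overlapped. Because the window was chosen on this contrast, nothing is read from these shares.

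A tile or position counted as higher in KO when its adjusted p in the genome-wide test was under 0.05 and the group means were at least 10 points apart. Of the 34 tested tiles, 2 met this, against 0.685% of tested tiles of the genome. Of 280 tested single positions 11 met it, against 0.284% of the genome. One of these tiles lies in Grhpr and the other in Pax5. Of the positions, 8 lie in the Grhpr tile, 2 in that Pax5 tile and 1 elsewhere in Pax5. None was lower in KO. These calls rest on moderating the spread across features, on the filter on mean level and on the form of the test. With no moderation, with all covered features or with limma, no tile or position of the window was called. With replicate number as a block, no single position was called. These other fits are given in the closing section.

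The tile inside Grhpr had the widest difference of the window. It spans chr4:44984001-44985000, and its 9 covered positions (7 CpGs) lie within 86 bases, 3043 to 3128 bp downstream of the Grhpr start. The tile level was 15.1%, 40.3% and 51.9% in WT replicates 1 to 3, and 83.9%, 80.1% and 79.6% in KO replicates 1 to 3. All KO libraries were well above all WT libraries, and the WT libraries were spread over a far wider range than the KO libraries. The means were 35.8% ± 18.8 (SD, n = 3) in WT and 81.2% ± 2.37 (SD, n = 3) in KO, a difference of 45.4 points on 667 to 1126 reads per library. Across the genome 8 tested tiles had a difference at least this large, this one included. Without WT replicate 1, the lowest library, the difference was 35.1 points, and leaving out each of the other 5 in turn gave 44.0 to 53.4 points. The tile counted as higher in KO in all 6 of these fits, but not when all covered tiles were tested, with limma or with no moderation of the spread.

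**Figure D2:**
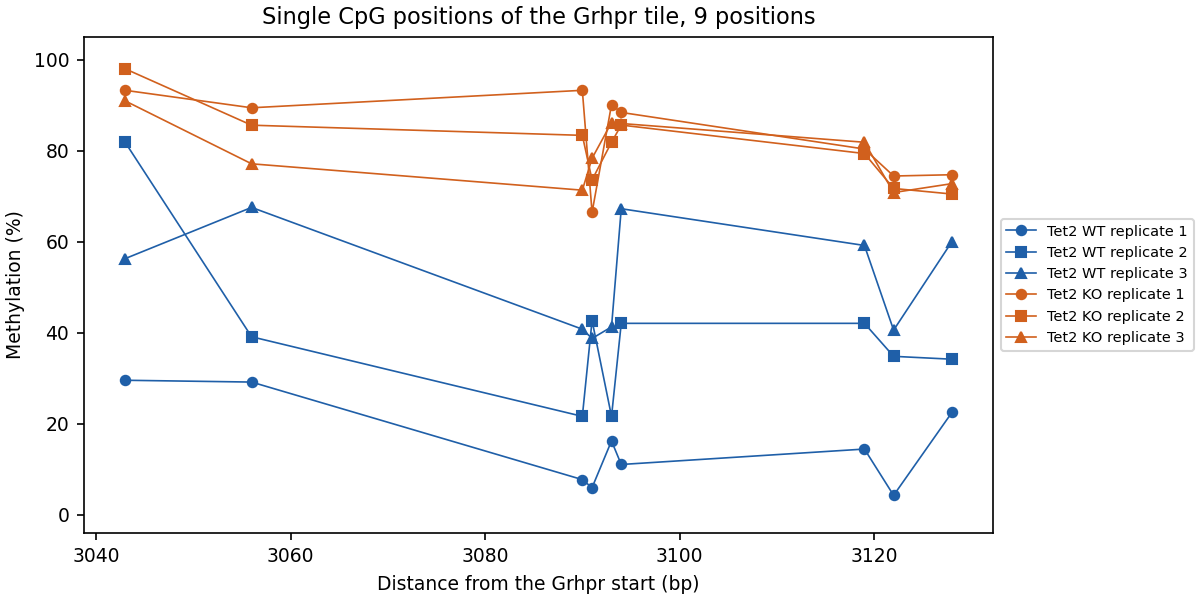
Methylation level (%) of the 9 covered positions of the Grhpr tile against distance from the Grhpr start (bp), one line per library, WT in blue and KO in orange. At each of the 9 positions the 3 KO libraries lie above the 3 WT libraries, and WT replicate 1 is the lowest at all 9.

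Each of the 9 positions showed the same order, with differences of 33.7 to 59.7 points and no overlap between the groups. Position 44984484, on the forward strand, was at 7.7%, 21.6% and 40.7% in WT and 93.2%, 83.3% and 71.3% in KO. Its reverse-strand partner at 44984485 was at 5.9%, 42.6% and 38.7% in WT and 66.4%, 73.6% and 78.3% in KO. The groups thus did not overlap on either strand of this CpG. The widest difference was at the next CpG, position 44984487, where WT was at 16.2%, 21.6% and 41.2% and KO at 90.1%, 81.8% and 86.1%. Its partner 44984488 was at 11.02%, 42.0% and 67.2% in WT and 88.4%, 85.6% and 85.9% in KO. The first position of the tile, 44984437, was the most methylated in both groups. There the WT levels were 29.5%, 81.8% and 56.2% and the KO levels 93.2%, 98.0% and 90.9%. The mean levels at 44984450 were 45.2% in WT and 84.0% in KO. At 44984513 and 44984516 they were 38.5% and 26.5% in WT against 80.5% and 72.3% in KO. The last position, 44984522, did not meet the threshold, with means of 38.9% and 72.6%. Positions this close share reads, so the 9 are not independent of each other.

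The rest of Grhpr divided into an unmethylated start and an intermediate tile. The start tile, chr4:44981001-44982000, held 24 positions at 0%, 0.0323% and 0.103% in WT and 0.0518%, 0.0472% and 0.379% in KO. With 3024 to 4234 reads per library, a count of 0 allows a level of up to 0.0992% in the library with the fewest reads, and such limits cover counting error only. The groups overlapped at this start. The tile beyond it, chr4:44982001-44983000, with 3 positions, was at 61.0%, 54.5% and 54.7% in WT and 65.5%, 64.5% and 52.9% in KO, which also overlapped. Over the whole gene body, 32 positions, the level was 9.5%, 13.3% and 16.6% in WT and 25.6%, 21.7% and 25.0% in KO. The groups did not overlap, with means of 13.1% ± 3.55 and 24.1% ± 2.09 (SD, n = 3 each), but the gene body did not meet the threshold. None of the 7 tested gene bodies that overlap the window did, against 0.0119% of 16773 in the genome. Of these, Polr1e ends beyond the window at 45034279, and 26 of its 48 covered positions lie inside. Limma, run on log2 ratios of the same gene bodies, also called 0 of the 7. At an unadjusted p under 0.05 the main test had 3 of them and limma 2, against 12% and 10.6% of gene bodies in the genome. The window was chosen on this contrast, so nothing is read from these counts.

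The Pax5 tile that met the threshold, chr4:44615001-44616000, lies between 95.1 and 95.7 kb into the gene and holds 7 positions (6 CpGs). Its level was 34.3%, 24.5% and 41.8% in WT and 51.9%, 57.1% and 51.9% in KO. Every KO library was above every WT library. The means were 33.5% ± 8.68 and 53.6% ± 3.03 (SD, n = 3 each), a difference of 20.1 points on 662 to 982 reads per library. At least this difference was found in 804 tested tiles, or 0.967% of the genome's. The call was lost when WT replicate 1, WT replicate 2 or any single KO library was left out, with differences of 15.6 to 21.0 points in those 5 fits, and was kept without WT replicate 3 at 24.2 points. It was also lost under the same 3 forms of the test as the Grhpr tile, and with at least 10 reads in only 2 libraries per group.

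Within this tile the positions were unlike each other. Position 44615504 was at 27.5%, 12.3% and 61.9% in WT and 69.7%, 73.3% and 69.1% in KO. Position 44615530 was at 61.5%, 25.0% and 49.7% in WT and 73.0%, 91.2% and 82.2% in KO. These were the 2 positions that met the threshold, and their KO levels were all above their WT levels. The reverse-strand partner at 44615505 did not overlap between groups either, at 49.4%, 49.5% and 21.2% in WT and 63.1%, 85.3% and 70.1% in KO. At 44615341 the WT libraries ranged from 28.0% to 76.9% and overlapped the KO range of 72.3% to 79.2%. The outer positions had lower mean levels in both groups. Means were 11.5% in WT and 15.1% in KO at 44615027, 19.95% and 31.9% at 44615057, and 10.95% and 9.3% at 44615609. In the tile before it, a single position at 44614837 had means of 14.2% and 44.0% on only 16 to 48 reads, with overlapping groups.

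**Figure D3:**
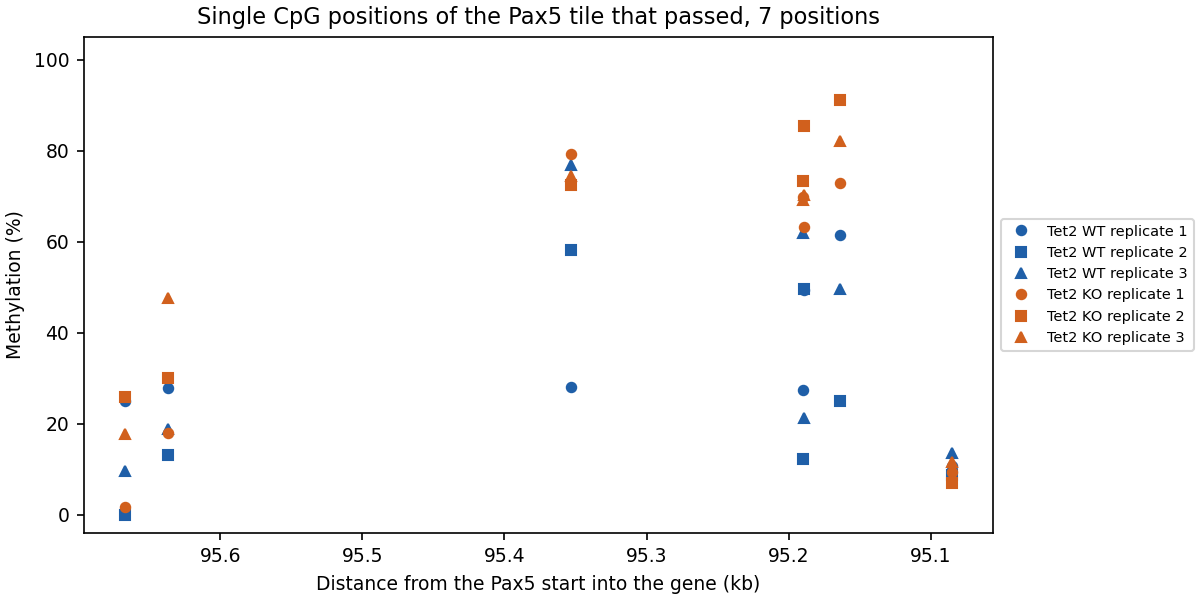
Methylation level (%) of the 7 positions of the Pax5 tile that met the threshold against distance from the Pax5 start into the gene (kb), one marker per library. The groups separate at 3 neighbouring positions, 44615504, 44615505 and 44615530, and overlap at the other 4.

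The CpG-densest tile of the window, chr4:44664001-44665000 in the Pax5 body, had an intermediate level. It lies between 46.0 and 46.6 kb into the gene and holds 93 positions (71 CpGs) on 8595 to 11434 reads per library. Its level was 30.5%, 43.1% and 45.5% in WT and 46.0%, 49.5% and 52.1% in KO. The KO libraries were all above the WT libraries, with the highest WT and the lowest KO library less than 1 point apart. Means were 39.7% ± 8.03 and 49.2% ± 3.05 (SD, n = 3 each), a difference of 9.44 points that did not meet the threshold and was 4.85 points without WT replicate 1. Of 1359 tiles in the genome with at least 93 covered positions, 10 had a mean between 20% and 80%.

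The difference was uneven along the dense tile. The KO mean was above the WT mean at 71 of its 93 positions, against 58.9% of tested positions of the genome. Every KO library exceeded every WT library at 18, and the opposite order occurred at 0. The share of such positions in the genome was not counted, so nothing is read from the 18. Neighbouring positions share reads and are not independent of each other. In the longest run of consecutive reverse-strand positions, 9 between 44664195 and 44664221, WT libraries were at 37.6%, 38.1% and 56.0% and KO libraries at 61.2%, 67.5% and 64.2%, which did not overlap. In the section between 44664301 and 44664400, 18 positions had means of 33.2% and 34.5%, with overlapping groups. Position 44664176 was the 1 position of this tile that met the threshold. It was at 15.5%, 46.5% and 43.3% in WT and 66.7%, 63.4% and 64.7% in KO. All 3 KO values were above the highest WT value.

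**Figure D4:**
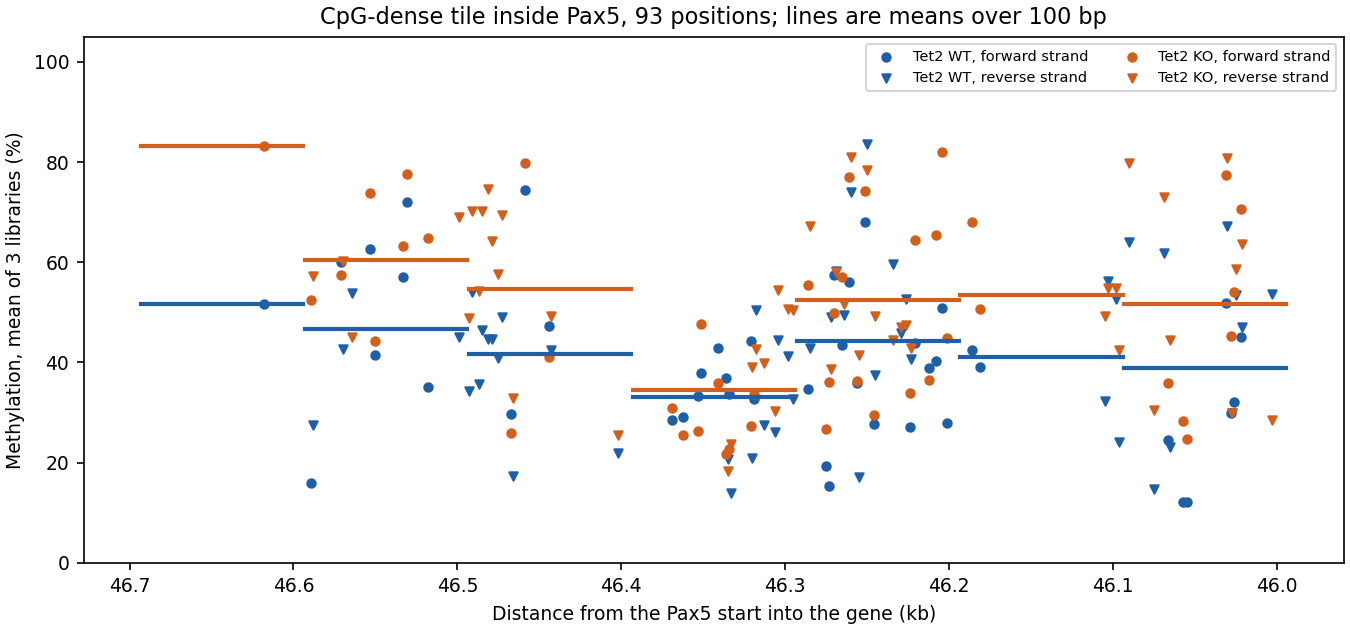
Mean methylation level (%) of 3 libraries at the 93 positions of the CpG-dense Pax5 tile against distance from the Pax5 start into the gene (kb). WT is blue and KO orange, circles mark the forward and triangles the reverse strand, and lines are means over 100 bp sections. The lines lie close together in the section with means of 33.2% and 34.5%, and KO is higher in the other sections.

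Around the Pax5 start both genotypes were almost unmethylated. From chr4:44702001 to 44715000, which includes the first part of the gene and the ground upstream of it, 220 positions were at 0.284%, 0.243% and 0.298% in WT and 0.314%, 0.485% and 0.506% in KO. The means were 0.275% ± 0.0291 and 0.435% ± 0.105 (SD, n = 3 each), a difference of 0.160 points. Mitochondrial positions read at a level of the same order, 0.241% to 0.410% in WT libraries and 0.258% to 0.408% in KO libraries. How much of such low levels is methylation was not tested. In the tile of the start itself, chr4:44710001-44711000, no methylated read was seen in 5 of the 6 libraries, and WT replicate 3 was at 2.23%. With 359 to 693 reads per library, a count of 0 there allows up to 0.836%. Tile chr4:44706001-44707000, with 4 positions, had no methylated read in any WT library and levels of 1.51%, 3.43% and 3.20% in KO. Nearly all of these came from 1 position, 44706449, at 6.80%, 9.25% and 12.6% in KO, and no KO library exceeded 0.8% at the other 3. A count of 0 on its smallest library of 465 reads allows up to 0.645%, and its mean lay under 5%, so it was not tested.

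Most of the remaining Pax5 body was highly methylated. Over all 389 positions between the gene's ends, reads summed, the level was 26.2%, 30.4% and 29.1% in WT and 30.8%, 34.0% and 35.2% in KO. The KO libraries were above the WT libraries by a narrow margin, with means of 28.6% ± 2.13 and 33.3% ± 2.30 (SD, n = 3 each). Of the 23 tested tiles in this body, 19 had the KO mean above the WT mean. Apart from the stretch at the gene start, 2 isolated tiles were nearly unmethylated in both groups. They were chr4:44602001-44603000, at 3.10% and 3.57%, and chr4:44624001-44625000, at 3.87% and 3.85%. In the latter, which adjoins a tile with a WT mean of 69.8%, the 6 libraries lay between 3.22% and 4.26%.

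Among the 12 tested tiles with the widest differences, another 7 lay in Pax5, and none of them met the threshold. Tile chr4:44623001-44624000 was at 48.6%, 79.4% and 81.3% in WT and 76.4%, 77.1% and 90.1% in KO, so that the difference of 11.4 points was 0.819 points without WT replicate 1 and 6.96 to 17.2 points without any other single library. Tile chr4:44697001-44698000 was at 28.3%, 56.5% and 81.8% in WT and 53.3%, 74.8% and 70.6% in KO. Its difference of 10.7 points turned to -2.90 points without that library and was 6.41 to 23.8 points without any other. The groups overlapped in both tiles. Tile chr4:44586001-44587000 was at 71.7%, 91.0% and 87.5% in WT and 93.8%, 90.4% and 92.0% in KO. The groups overlapped, and the difference of 8.65 points was 2.81 without WT replicate 1. In tile chr4:44616001-44617000, next to the tile that met the threshold, WT was at 72.0%, 90.2% and 88.8% and KO at 90.8%, 90.4% and 92.6%. The groups there did not overlap, but the difference of 7.62 points was 1.80 without WT replicate 1. In tile chr4:44549001-44550000 the WT mean was 82.98% and the KO mean 94.2%, and in tile chr4:44632001-44633000 they were 83.8% and 91.6%, both with no overlap between groups. In tile chr4:44558001-44559000 the means were 60.5% and 67.4%, with overlap, and the difference of 6.88 points was 4.47 without KO replicate 3.

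**Figure D5:**
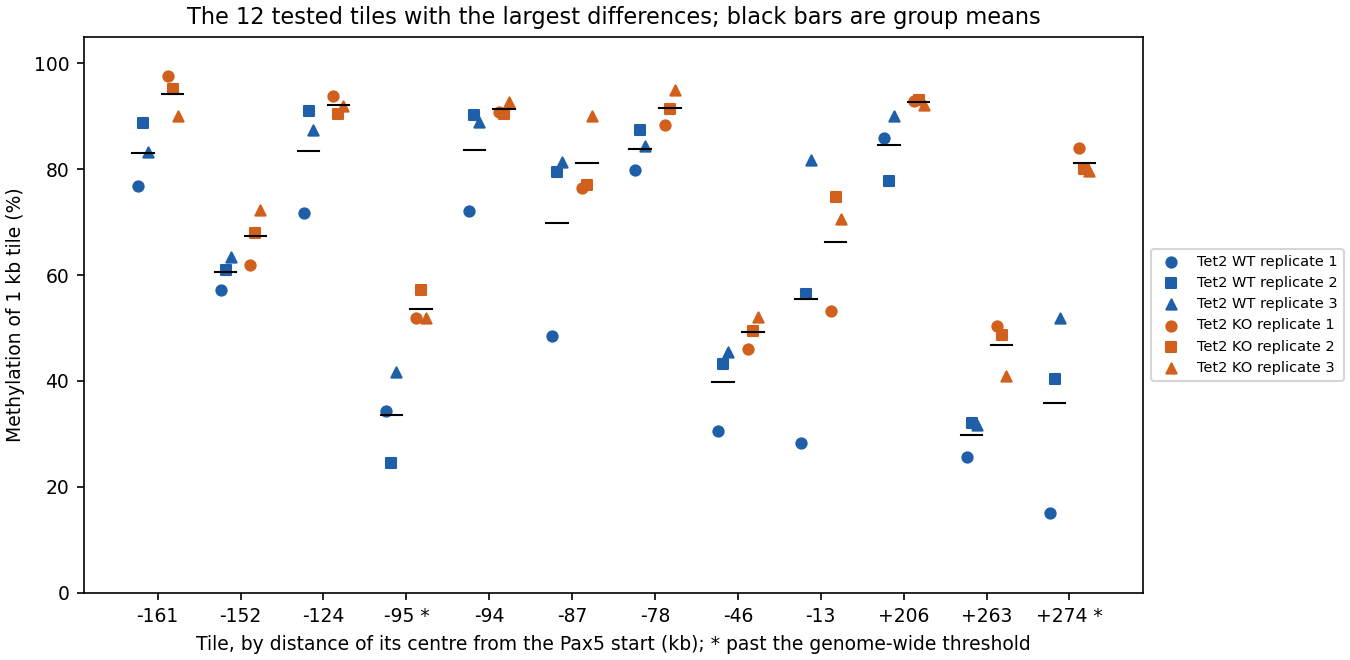
Methylation level (%) of the 12 tested tiles with the largest differences, by distance of the tile centre from the Pax5 start (kb), one marker per library and a bar for each group mean. Asterisks mark the 2 tiles that met the threshold, and WT replicate 1 is far below the other WT libraries in several tiles, such as those at -124, -94, -87 and -13 kb.

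Zcchc7 was thinly sampled. Its 175658 bases held 37 covered positions, 27 of them under 5%, with none in a run of 113 kb from 44756887 to 44870232 and none in the next 45.9 kb up to 44916201. Whatever lies in those stretches, any distal enhancer included, was not analysed here. The start tile, chr4:44756001-44757000, held 37 positions, some upstream of the gene, and was unmethylated, with means of 0.320% and 0.372% and overlapping libraries. Only 1 tile of the gene was tested, chr4:44916001-44917000. It was at 85.9%, 77.7% and 90.0% in WT and 92.8%, 92.99% and 92.2% in KO, which did not overlap. Its means of 84.5% ± 6.29 and 92.7% ± 0.419 (SD, n = 3 each) differed by 8.12 points, or 4.69 without WT replicate 2. Both other covered tiles of the gene, with 2 positions each, had group means of 92.3% to 94.9%. The gene body was at 28.4%, 17.3% and 22.1% in WT and 25.9%, 23.2% and 25.3% in KO. These overlapped, and the difference of 2.17 points was -0.474 without WT replicate 2 and 5.07 without WT replicate 1.

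Between Zcchc7 and Grhpr, the tile chr4:44973001-44974000 in the long non-coding RNA gene Gm12679 was at 25.6%, 32.1% and 31.7% in WT and 50.5%, 48.7% and 41.0% in KO. The groups did not overlap and the means differed by 16.9 points, but the tile did not meet the threshold. Weighting its 7 positions equally rather than by reads gave 9.01 points, and its positions fell into 2 sets. On the forward strand 3 positions, read 13 to 54 times, had group means of 2.6% to 13.2% and differences within 1 point. On the reverse strand 4 positions had differences of 9.5 to 22.1 points. Nearer to Zcchc7, the tiles chr4:44939001-44940000 and chr4:44940001-44941000 adjoin each other and lie in no annotated gene. Their 7 positions had no methylated read in 5 of the 6 libraries, and KO replicate 2 was at 0.275%. The library with the fewest reads had 215 in the first tile and 114 in the second, where a count of 0 allows up to 1.40% and 2.63%.

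The last genes of the window had unmethylated starts in both groups. Zbtb5, a BTB zinc-finger gene, had 60 positions in its start tile, chr4:45012001-45013000, with a WT mean of 0.133% ± 0.0479 and a KO mean of 0.0323% ± 0.0298 (SD, n = 3 for both). Its body held 64 positions, with means of 9.08% and 9.83% and overlapping libraries. At the start of Polr1e, which encodes a subunit of RNA polymerase I, 26 positions in the window had means of 0.652% and 0.685%. Of the 13 annotated genes that overlap the window, 5 (Mir5120, Gm12462, Gm12463, Gm12678 and 1700055D18Rik) held no covered position. The long non-coding RNA gene 5730488B01Rik, inside the unmethylated stretch of Pax5, had 150 positions with means of 0.140% and 0.182%, and Gm30763 had 9 with means of 93.6% and 94.7%.

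The WT libraries differed more among themselves than the KO libraries. The median SD over the 34 tested tiles was 4.90 points in WT and 2.85 in KO, against 4.002 and 2.78 over the genome. The WT SD was the larger in 26 of the 34 tiles, and in 66.5% of tested tiles of the genome. WT replicate 1 was the lowest of the 6 libraries in 18 of the 34 tiles, against 30.01% in the genome. Its median level over the 34 tiles was 73.7%, compared with 82.2% and 83.8% in WT replicates 2 and 3 and 85.0% to 86.9% in KO. Without it, the KO mean was above the WT mean in 24 of 32 tested tiles with a median of 2.81 points. What sets WT replicate 1 apart was not tested.

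Of 122 CpGs read on both strands, 41 had a mean level between 5% and 95%. Within a library the levels on the strands of these CpGs differed by a median of 9.65 points.

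Read coverage did not enter the choice of the window beyond the minimum of 10 reads, and could be tested. With edgeR's quasi-likelihood test 0 of 54 tiles differed in coverage after adjustment over 113541 tiles, against 0.000881% of the genome, and 2 had an unadjusted p under 0.05. Those were chr4:44507001-44508000 and chr4:44508001-44509000, both below Pax5 and both with fewer KO reads. In the latter, WT libraries had 2696, 2434 and 2186 reads and KO libraries 1721, 1427 and 1267, with no overlap. Its log2 ratio of KO to WT coverage was -0.79 with an adjusted p of 0.481 in edgeR, and DESeq2, which called this 1 tile, gave -0.79 with an adjusted p of 0.0226. The methylation level of this tile was 9.57%, 9.91% and 10.4% in WT and 11.1%, 21.6% and 15.9% in KO. Over the 54 tiles the log2 ratios had a median of 0.06 and ranged from -1.22 to 0.49. The Grhpr tile and the Pax5 tile that met the methylation threshold were not among those with an unadjusted p under 0.05.

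Coverage also set which positions were seen. The 28 positions whose lowest library had 10 to 14 reads had mean levels of 27.6% in WT and 29.5% in KO. Just outside the minimum, 35 positions were missing in 1 library only, with a median coverage of 21.2 reads in the other 5 and levels of 14.9% and 16.03%. A single position of the window, 44679550 in Pax5, was listed in every KO library (12 to 18 reads, 58.3% to 100%) and in no WT library. At the edges of the window, the last tile below it, chr4:44496001-44497000, had a WT mean of 81.6% and a KO mean of 92.6%, compared with 80.2% and 73.8% for the first tile inside, chr4:44502001-44503000. The last tile inside, which begins at chr4:45019001, was at 1.72% and 1.64% and the first above, chr4:45022001-45023000, at 93.2% and 94.0%. In the 260 kb below the window 7 of 12 tested tiles had the KO mean above the WT mean (median 1.25 points), and in the 260 kb above it 11 of 19 (median 0.138 points). None of these flanking tiles met the threshold in the quasi-binomial test, and 1 on each side had an unadjusted p under 0.05, compared with 9 of the 34 in the window and 11.5% of tested tiles of the genome. Because the window was chosen on this contrast, nothing is read from its counts beside those of the flanks.

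The tiles whose 6 library levels were most like those of the Grhpr tile, by root-mean-square difference over the 6 libraries, lay in Mtmr3 (5.71 points), Msh4 (6.62 points) and Cmtm7 (6.76 points). For the Pax5 tile they lay in Foxp1 (3.42 points), Pip4k2b (3.55 points) and Pcnx2 (4.04 points).

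Genes that act with Pax5 were read from lists of regulators and targets, with tiles between each gene's annotated ends. Of 51 tested tiles in 8 regulators of Pax5, 5 were higher in KO and 0 lower, the median difference was 6.78 points, the KO mean was above in 92.2% and 24 had an unadjusted p under 0.05. The 5 lay in Ebf1 (3 tiles), Irf4 and Irf8, which encode transcription factors of B cells. Of 75 tested tiles in 10 of 16 genes activated by Pax5, 6 were higher and 0 lower. Over the 75 the median difference was 5.62 points, the KO mean was above in 92% and 33 had an unadjusted p under 0.05. The 6 lay in Blnk and Nedd9, which encode signalling adaptors, and in Ebf1 and Irf8, which stand in both lists. With 19 tested tiles of Ebf1 and 9 of Irf8 counted in both, the lists are not separate results. Of 35 tested tiles in 7 of 12 genes repressed by Pax5, 0 were higher and 0 lower. Over the 35 the median was 2.88 points, the KO mean was above in 71.4% and 7 had an unadjusted p under 0.05. Among all tested tiles of the genome the median was 1.28 points and the KO mean was above in 64.0%. Of those tiles, 0.685% were higher and 11.5% had an unadjusted p under 0.05. The widest of these differences was in Nedd9, chr13:41453001-41454000, at 31.5%, 60.3% and 50.7% in WT and 91.3%, 83.8% and 80.6% in KO, with no overlap. In Blnk the tile chr19:40959001-40960000 was at 53.0%, 61.2% and 63.5% in WT and 79.3%, 79.6% and 88.1% in KO, also with no overlap.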

How the data were processed

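Genomic DNA of 6 libraries was profiled by ERRBS. Per the submitters' processing notes, reads were aligned with Bismark to GRCm38; no version of either is stated in the labels. Per the file headers, the deposited values are a read count (coverage) per position and strand and the percent of those reads called C or T, and every listed position has at least 10 reads. Methylated counts were recovered from coverage and percent, and were whole to the files' 3 decimals at 100% of positions.

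Only positions listed for every library were kept, and reads were summed over 1 kb tiles with at least 3 positions and gene bodies with at least 5. Features with a mean level of 5% to 95% were tested with a quasi-binomial logistic model on genotype, the dispersion moderated over the genome as in limma 3.58.1, and Benjamini-Hochberg adjustment over all tested features. Group levels are unweighted means of library levels. Coverage was tested with edgeR 4.0.16 (quasi-likelihood, TMM) and, as an alternative, DESeq2 1.42.0. The methylation test was checked on simulated tiles that all shared the same spread between libraries beyond counting error. That check cannot show how the test behaves where this spread varies between tiles. Gene names, ends and promoter sequences are from RefSeq (GRCm38.p6). All 219174 covered positions within promoter windows fell on a CG.

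The window, the genes and the lists were chosen with earlier results of these data known. Tiles named are those that met the threshold, then the widest differences up to 12 in all, then the tiles of 4 gene starts; positions named in full are those of tiles with 9 or fewer, and others named were chosen after their values were seen. From each list, members with a tile that met the threshold were named. Nothing in the labels says that libraries came from separate mice, so the tests measure the spread between libraries, which may be technical. Reads carry no molecular identifiers, so limits cover counting error only.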

Additional observations from a re-analysis of the deposited data

How the results depend on the processing

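The count of tiles higher in KO, 2 as reported, was 0 without the filter on mean level (all covered tiles), 0 with limma on log2 ratios, 0 with no moderation of the dispersion and 1 with at least 10 reads in only 2 libraries per group. It ranged from 1 to 2 when each library was left out in turn. Under the 3 settings with 0 tiles the differences of the Grhpr tile (45.4 points) and the Pax5 tile (20.1 points) did not move, since only the test changed. The count of single positions, 11 as reported, was 0 for all covered positions, 0 with limma, 0 with no moderation and 0 with the replicate block, and ranged from 4 to 16 when each library was left out. Without WT replicate 1, 3 of the 4 were also among the 11, and the fourth, 44664691, was lower in KO (65.9% against 28.5%). The paired fit, with replicate number as a block, left 2 tiles called. Deviations of same-numbered libraries correlated at 0.0229, 0.0022 and 0.0037. WT replicate 3 correlated more with KO replicate 2 (0.0150) than with its own number. These correlations run over tiles and miss any shift of a whole library, so they cannot show whether the numbers are only labels. The mitochondrial level was 0.260%, 0.410% and 0.241% in WT replicates 1 to 3 and 0.258%, 0.408% and 0.294% in KO replicates 1 to 3. What same-numbered libraries share was not tested. The difference of the window's mean level was 8.36 points for positions of 5% to 95%, since positions near 0% then drop out, and 2.15 to 4.33 points when each library was left out. DESeq2 called 1 coverage tile where edgeR called 0. Genome-wide, 569 tiles were higher and 2 lower in the fit reported, 207 and 2 without WT replicate 1, 1150 and 14 without WT replicate 3, 141 and 1, 124 and 0, and 155 and 0 without KO replicates 1, 2 and 3, 8 and 0 for all covered tiles, 894 and 6 with the block, and 0 with limma or no moderation. Single positions genome-wide numbered 1489 higher and 55 lower in the fit reported, 0 with the block or limma, 20 higher and 15 lower with no moderation, 104 and 103 for all covered positions, and 485 to 3427 higher when each library was left out. No difference named as meeting the threshold changed direction. With a minimum coverage of 20 reads in all 6 libraries, 2 tiles and 11 positions were called.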
